A study of Homo sapiens with 6 samples.

Results

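The human mitochondrial genome encodes 37 genes, and each of them had a row on the mitochondrial chromosome of the deposited expression table: 13 mRNAs, 2 rRNAs and 22 tRNAs, out of 30676 genes in all. They were chosen by chromosome alone. That rule uses no measured value, but it was set with earlier results of these data known. The 6 libraries are labelled as wild-type HCT116, an established colorectal cancer cell line. In 3 libraries the cells received GIA at 10 µM for 24 h, and in 3 control libraries they received the vehicle DMSO at 0.1% for 24 h. GIA stands for genistein isoflavonoid alkaloids, per the series title. All 6 libraries came from cells at 1% oxygen, so both groups share the hypoxia and no library shows the transcripts at normal oxygen. A DMSO content is labelled for the controls only. Nothing in the labels ties the libraries to separate cultures, and the tests therefore measure a spread between libraries that may be technical.

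Mitochondrial DNA is a small circle that codes for 13 subunits of the respiratory chain and ATP synthase, and for the rRNAs and tRNAs that translate them inside the organelle. The polymerase POLRMT, with TFAM and TFB2M, copies each strand into long precursors that cover many genes. The tRNAs lie between the other genes, and their excision at both ends releases most mRNAs and rRNAs, which is known as tRNA punctuation. The mRNAs then receive poly(A) tails from MTPAP and are held stable by LRPPRC and SLIRP. Here a heavy-strand gene is one with the plus strand in the table (12 mRNAs, both rRNAs and 14 tRNAs), and a light-strand gene is one with the minus strand (MT-ND6 and 8 tRNAs).

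From MT-TF to MT-TP along the annotated sequence, the genes lie with almost no space between them. Coordinates of 37 of 37 members matched the GENCODE release 29 annotation of GRCh38, running from position 577 (MT-TF) to 16023 (MT-TP). Of 36 pairs of neighbours along this sequence, 20 abutted with no base between them, 5 overlapped and the widest gap was 31 bases. The stretch of the circle from MT-TP round to MT-TF holds no member and was not counted. MT-ATP8 (MT:8366-8572) and MT-ATP6 (MT:8527-9207) share 46 bases in different reading frames, so the reads in that stretch are shared between their values. The MT-ATP8 sequence is shown for this reason, 5′ to 3′ from the GENCODE transcripts, with the shared bases in capitals.
MT-ATP8: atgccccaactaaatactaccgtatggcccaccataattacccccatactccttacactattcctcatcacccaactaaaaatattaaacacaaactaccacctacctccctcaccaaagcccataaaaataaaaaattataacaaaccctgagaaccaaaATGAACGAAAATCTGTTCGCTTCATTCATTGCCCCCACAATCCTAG

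The tRNAs whose values the results turn on are shown next, from the same transcripts, each 5′ to 3′ on its own strand, with the anticodon in capitals. In each, the anticodon letters followed by a purine and preceded by T occurred at 1 place between bases 18 and 42. MT-TW (MT:5512-5579, heavy strand) and the light-strand cluster MT-TA (MT:5587-5655), MT-TN (MT:5657-5729), MT-TC (MT:5761-5826) and MT-TY (MT:5826-5891) lie side by side but on opposite strands.
MT-TW: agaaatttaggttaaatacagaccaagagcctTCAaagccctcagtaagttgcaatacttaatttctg
MT-TA: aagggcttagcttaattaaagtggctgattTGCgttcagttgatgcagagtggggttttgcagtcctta
MT-TN: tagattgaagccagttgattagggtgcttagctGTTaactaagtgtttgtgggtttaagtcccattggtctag
MT-TC: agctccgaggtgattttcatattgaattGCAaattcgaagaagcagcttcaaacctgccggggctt
MT-TY: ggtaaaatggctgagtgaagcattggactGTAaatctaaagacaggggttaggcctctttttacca

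MT-TH (MT:12138-12206), MT-TS2 (MT:12207-12265) and MT-TL2 (MT:12266-12336) stand in a row between the MT-ND4 and MT-ND5 mRNAs, and MT-TK (MT:8295-8364) lies between MT-CO2 and MT-ATP8.
MT-TH: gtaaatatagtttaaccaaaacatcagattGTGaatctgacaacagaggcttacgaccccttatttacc
MT-TS2: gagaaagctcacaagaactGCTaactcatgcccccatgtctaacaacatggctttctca
MT-TL2: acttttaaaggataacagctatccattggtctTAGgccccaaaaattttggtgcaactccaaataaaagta
MT-TK: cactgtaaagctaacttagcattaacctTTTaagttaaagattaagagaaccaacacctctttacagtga

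Of the 13 mRNAs, 6 end within a codon in the annotation, so their stop codon is completed only by the poly(A) tail. The ends of an incomplete and a complete reading frame are shown, with the bases of the last codon in capitals, the last 24 bases of each.
MT-ND4: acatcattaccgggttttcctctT
MT-CO2: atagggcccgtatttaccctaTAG

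Library totals were 55725249 to 67835059 estimated counts and were larger with GIA, without overlap between the groups. The epithelial markers of the label were checked: the keratins KRT8 and KRT18 had means of 148 and 262 FPKM (coverage per gene length, scaled to library size) with DMSO. The defining epithelial adhesion genes EPCAM (0.255 FPKM) and CDH1 (0.0422) and the brush-border gene VIL1 (0.00751) were near 0. LUM and DCN, matrix genes of fibroblasts, had 168 and 12.2 FPKM with DMSO. The other fibroblast markers were low, with PDGFRB at 3.98, COL1A1 at 2.32 and COL3A1 at 0.0 FPKM, so the fibroblast list did not point 1 way either. The libraries are therefore called by their labels only. PTPRC of leukocytes and CDH5 of endothelium were near 0 (0.00538 and 0.00895 FPKM with DMSO). CD68, also on the leukocyte list, was not, with 20.6 FPKM with DMSO and 19.8 with GIA. Summed over 5 fibroblast markers the level was 178 to 195 FPKM with DMSO and 175 to 222 with GIA. Most of that sum was LUM, with 160 to 176 FPKM with DMSO and 157 to 197 with GIA. The 7 epithelial markers in the table summed to 435 to 441 FPKM with DMSO and 382 to 452 with GIA. Nearly all of that sum was the keratins KRT8, KRT18 and KRT19. The part of either list in the mitochondrial values was not tested.

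Mitochondrial transcripts held the 5 highest FPKM values of the whole table, 8 of the first 10 and 16 of the first 20. They took up 4.89%, 4.71% and 4.56% of the estimated counts in DMSO libraries 1 to 3 and 4.94%, 4.76% and 5.06% in GIA libraries 1 to 3. The groups overlapped, with 2 of 3 GIA libraries above every DMSO library. The DMSO mean was 4.72% ± 0.167 (SD, n = 3) and the GIA mean 4.92% ± 0.154 (SD, n = 3), a difference of 0.199 percentage points (exact permutation test, two-sided, p = 0.2, where 3 libraries against 3 cannot go below 0.1). The Wilson 95% interval of a library's share had a half-width of at most 0.0113 points, taking 4 counts as 1 fragment and covering counting error only. By summed FPKM, which weights genes by coverage and not by length, the share was 19.5% ± 0.552 with DMSO and 20.1% ± 0.583 with GIA. In bulk RNA, a different amount of mitochondrial RNA per cell and a different number of cells rich in it cannot be told apart.

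The mRNAs made up 93.0% to 94.6% of the mitochondrial counts, the rRNAs 4.46% to 5.92% and the tRNAs 0.944% to 1.06%. The labels name a SMARTER mRNA kit but not how it selected or primed RNA, so the balance of classes is that of these libraries. Values of tRNAs, which are 59 to 75 bases long, are read coverage over the gene and do not separate a mature tRNA from a longer transcript that spans it. Levels are compared between genes on the FPKM scale, as means over the 6 libraries unless a group is named.

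Levels of the 13 mRNAs spanned 331 to 7718 FPKM, with a median of 3430. The 3 subunits of cytochrome c oxidase (complex IV) were among the highest: MT-CO1, its catalytic subunit, had 7718 FPKM and ranked first in each library, MT-CO2, which takes electrons from cytochrome c, had 5692 and ranked second in each, and MT-CO3 had 3976. The 7 complex I subunits covered the widest range. MT-ND4 (5457 FPKM) and MT-ND4L (4218), which overlap by 7 bases, stood above MT-ND5 (2355), MT-ND2 (1689), MT-ND6 (1585) and MT-ND1 (1218). MT-ND3 (331 FPKM) was the lowest mRNA in each library; the next mRNA downstream is MT-ND4L. The ATP synthase subunits MT-ATP6 and MT-ATP8 had 3735 and 3430 FPKM, and MT-CYB, the complex III subunit, had 2068.

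The order of the mRNAs hardly moved between libraries. Of the 13 mRNAs, 9 held the same rank in all 6 libraries. Among the exceptions, MT-CO3 and MT-ND4L exchanged ranks 4 and 5 in GIA library 1 only. MT-ND2 and MT-ND6 exchanged ranks 10 and 11 in GIA library 2 only. Whether the genes of either pair differ in level was not tested. Level did not follow position. Over the 12 heavy-strand mRNAs, Pearson's r between log2 FPKM and start position was -0.0055 (Spearman's rho 0.0070), a description across genes that share libraries and precursor. With gene length r was 0.24 (rho 0.12) and with GC content 0.36 (rho 0.17).

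The rRNAs differed from each other. MT-RNR2, the 16S rRNA of the large ribosomal subunit, had 1273 FPKM and MT-RNR1, the 12S rRNA of the small subunit, had 206. Both lie upstream of the mRNAs on the heavy strand. MT-TL1, the leucine tRNA between MT-RNR2 and MT-ND1, had 285 FPKM, the highest of the 14 heavy-strand tRNAs, whereas MT-TV, the valine tRNA between the rRNAs, had 8.49 and MT-TF, upstream of both, 14.3. MT-RNR2 was thus 4.47 times as high as MT-TL1 on its downstream side and 149.97 times as high as MT-TV on its upstream side.

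**Figure D1:**
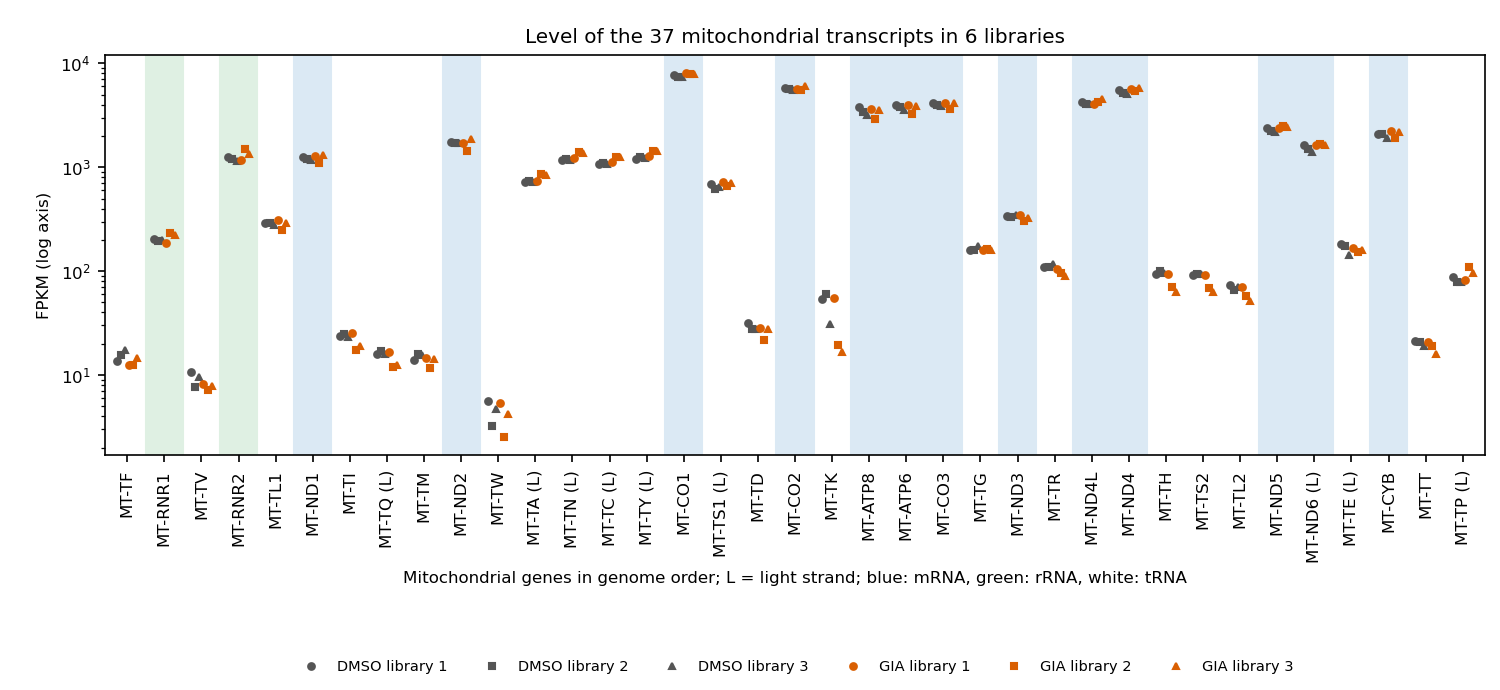
FPKM (log axis) of each of the 37 mitochondrial genes in genome order, with 1 point per library; circles, squares and triangles are libraries 1, 2 and 3 of DMSO (grey) and GIA (orange), and the background marks mRNAs (blue), rRNAs (green) and tRNAs (white). Mean levels of the mRNAs lie between 331 and 7718 FPKM, those of 12 of the 14 heavy-strand tRNAs at 104 or less, and those of 5 light-strand tRNAs (L) beside MT-CO1 between 672 and 1305.

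Light-strand tRNAs had far higher values than heavy-strand tRNAs. The median of the 8 light-strand tRNAs was 721 FPKM and that of the 14 heavy-strand tRNAs 33.5. Within a library the ratio of these medians was 15.5 to 36.7, above 1 in 6 of 6 libraries. The light-strand values fell into separate levels along the genome: MT-TA (alanine, 771 FPKM), MT-TN (asparagine, 1258), MT-TC (cysteine, 1146), MT-TY (tyrosine, 1305) and MT-TS1 (serine, 672) flank MT-CO1, whereas MT-TE (glutamate, 163), MT-TP (proline, 88.9) and MT-TQ (glutamine, 15.0) lie elsewhere. MT-TW, the tryptophan tRNA 7 bases from MT-TA on the other strand, had 4.28 FPKM, the lowest of all members, 180-fold under MT-TA. Its estimated counts were 13 to 28, against 3036 to 7539 in the 4 light-strand tRNAs beside it. The libraries are strand-specific per the labels, but whether counting used the strand is not given, and without it light-strand reads and heavy-strand precursor reads over these genes could not be told apart.

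MT-ND6, the only mRNA of the light strand, had 1655, 1502 and 1405 FPKM in DMSO libraries 1 to 3 and 1642, 1676 and 1630 in GIA libraries 1 to 3. Only DMSO library 1 reached the GIA values. Its base composition is the mirror of the other mRNAs, with 35.6% G and 7.05% C, whereas MT-CO1, for example, has 16.2% G and 30.0% C. Against the mean of the 12 heavy-strand mRNAs its log2 ratio was -1.18 ± 0.0644 with DMSO and -1.10 ± 0.0918 with GIA (SD, n = 3; exact permutation p = 0.3, two-sided). The light-strand tRNA next to it, MT-TE, was 9.71-fold lower than MT-ND6. As for the tRNAs, whether counting used the strand is not given. Without it, heavy-strand precursor reads over MT-ND6 could not be told apart from its own reads.

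Among the heavy-strand tRNAs, MT-TH (histidine), MT-TS2 (serine) and MT-TL2 (leucine), which follow each other with no base between them, had 86.1, 83.7 and 64.9 FPKM, and the mRNAs on their sides, MT-ND4 and MT-ND5, were 63.4-fold and 36.3-fold higher. MT-TI (isoleucine, 22.3 FPKM) and MT-TQ on the other strand overlap by 3 bases, and MT-TM (methionine) had 14.3. MT-TG (glycine, 163 FPKM) and MT-TR (arginine, 104) flank the low MT-ND3. MT-TD (aspartate), MT-TK (lysine) and MT-TT (threonine) had 27.5, 39.4 and 19.3 FPKM.

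Between GIA and DMSO, no mitochondrial transcript passed the test. All 37 members passed the filter on low values (a mean of at least 0.5 FPKM), and 0 of 37 were higher or lower at an adjusted p under 0.05 by edgeR's quasi-likelihood test, as were 0% of 13721 genes tested. Their adjusted p-values were 0.874 to 0.993. At an unadjusted p under 0.05 there were 7 members, against 4.63% of all tested genes, 6 of them higher (2.62% of all genes) and 1 lower (2.01%), and DESeq2 and limma on FPKM also called 0 members, with 9 and 8 at that level. The intervals were narrow for the mRNAs and rRNAs but not for most heavy-strand tRNAs, whose limits reached 0.311-fold (MT-TK) and 1.63-fold (MT-TW). The 95% limits stayed inside a 1.5-fold change in both directions for 13 of 13 mRNAs, 2 of 2 rRNAs, 7 of 8 light-strand tRNAs and 4 of 14 heavy-strand tRNAs, and over the mRNAs the widest limits were 0.840-fold (MT-ATP8) and 1.18-fold (MT-ND6).

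**Figure D2:**
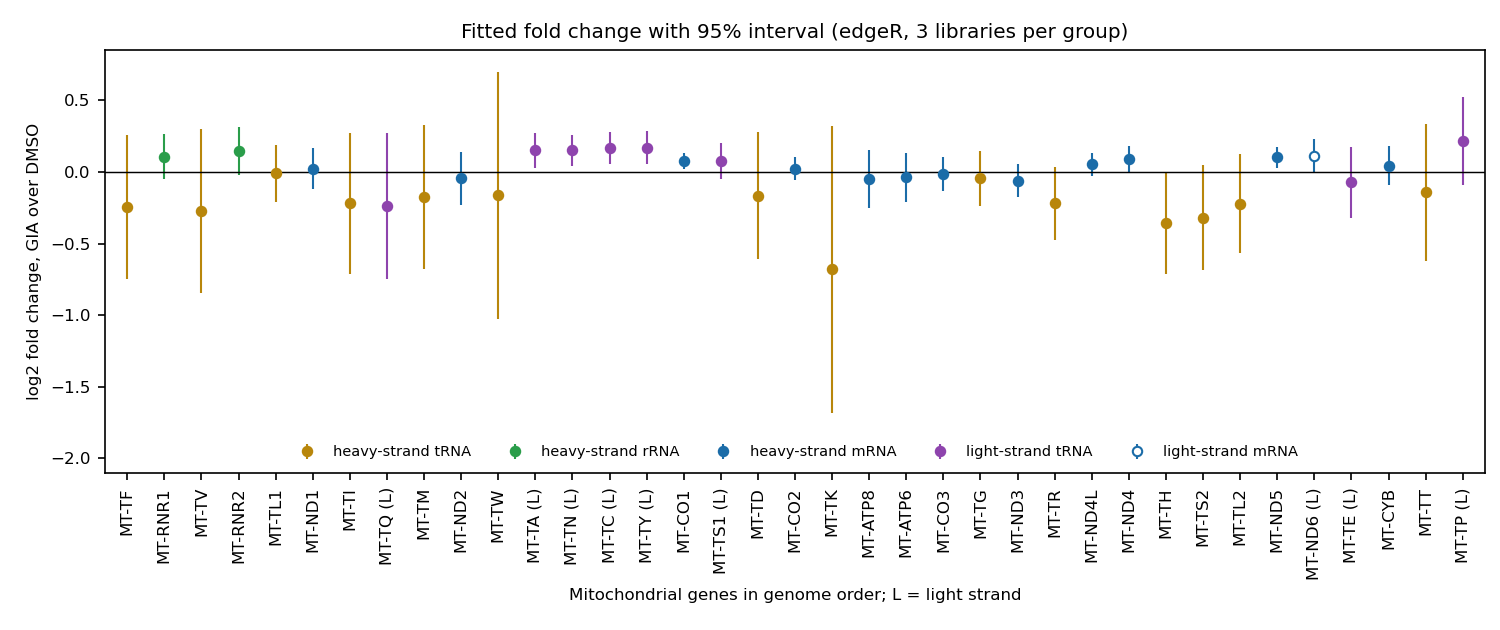
Log2 fold change (GIA over DMSO) of each of the 37 mitochondrial genes in genome order with its 95% interval from edgeR's quasi-likelihood fit on 3 libraries per group; colours give class and strand, and the open circle is MT-ND6. The mRNA points lie between -0.06 and 0.12, whereas the 14 heavy-strand tRNA points lie below 0, with MT-TK lowest at -0.68.

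Fitted log2 fold changes of the 13 mRNAs lay between -0.06 and 0.12. MT-CO1 had 7724, 7472 and 7322 FPKM in DMSO libraries 1 to 3 and 8012, 7829 and 7949 in GIA libraries 1 to 3. The groups did not overlap, as for 5.63% of all tested genes in this direction. Its log2 fold change was 0.08 (SE 0.02, 95% interval 1.02-fold to 1.10-fold, adjusted p = 0.874 by edgeR). MT-ND5, a proton-pumping subunit of complex I, had 2369, 2247 and 2190 FPKM with DMSO and 2365, 2507 and 2451 with GIA. The groups overlapped only through DMSO library 1 and GIA library 1, which had nearly the same value, and the log2 fold change was 0.10 (SE 0.03, adjusted p = 0.874). MT-ND4 had 0.09 (SE 0.04), and 0.06 without either DMSO library 3 or GIA library 3. MT-ND4L had 0.05 (SE 0.04), 0.01 without GIA library 3 and 0.08 without GIA library 1. MT-ND6 had 0.12 (SE 0.05), and leaving out DMSO library 3 or 1 gave 0.06 and 0.18. The other members of complex IV, MT-CO2 and MT-CO3, had 0.02 (SE 0.04) and -0.01 (SE 0.05).

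Of the 12 heavy-strand mRNAs, 7 had their lowest value in GIA library 2. The same library held the highest fibroblast marker sum, mostly LUM (222 FPKM, against 175 to 197 in the other libraries). It also held the lowest epithelial marker sum, nearly all keratins (382, against 431 to 452). The part of these sums in the mitochondrial values of GIA library 2 was not tested. MT-ATP6 had 3999, 3827 and 3522 FPKM with DMSO and 3978, 3229 and 3857 with GIA. MT-ATP8 had 3830, 3420 and 3216 with DMSO and 3667, 2922 and 3528 with GIA. MT-ND2 had 1744, 1703 and 1696 with DMSO and 1698, 1427 and 1869 with GIA, so that the GIA group held both the lowest and the highest value. Of the 12 heavy-strand mRNAs, 7 were below and 3 above every DMSO library in GIA library 2, 1 below and 6 above in GIA library 1, and 1 below and 8 above in GIA library 3. Among the DMSO libraries themselves, library 3 was the lowest for 10 of the 12 and library 1 the highest for 10. The log2 fold changes of MT-ATP8 (-0.05, SE 0.09), MT-ATP6 (-0.04, SE 0.08), MT-ND2 (-0.04, SE 0.08) and MT-CO3 became positive without GIA library 2, with 0.05, 0.05, 0.06 and 0.05. Leaving out DMSO library 1 also made MT-ATP8 (0.02), MT-ATP6 (0.0033) and MT-CO3 (0.01) positive. MT-ND1 (0.02, SE 0.06), MT-CYB (0.04, SE 0.06) and MT-ND3 (-0.06, SE 0.05) did not pass either. The median over the 13 mRNAs was 0.02, with 8 positive and 5 negative, against 0.00012 over all tested genes, and leaving out GIA library 2, DMSO library 3, GIA library 1 or GIA library 3 gave 0.06, 0.0030, -0.0038 and -0.02.

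The rRNAs were high in GIA libraries 2 and 3 but not in GIA library 1. MT-RNR2 had 1256, 1206 and 1158 FPKM with DMSO and 1177, 1510 and 1328 with GIA. MT-RNR1 had 202, 194 and 199 with DMSO and 186, 232 and 223 with GIA, its lowest value being that of GIA library 1. The log2 fold changes were 0.15 (SE 0.07) and 0.11 (SE 0.07). Leaving out GIA library 2 gave 0.06 and 0.05, and leaving out GIA library 1 gave 0.23 and 0.19. As a ratio of summed FPKM to the mRNAs, the rRNAs had log2 values of -4.94, -4.93 and -4.93 with DMSO, and -5.04, -4.58 and -4.88 with GIA. The DMSO libraries were thus nearly equal (SD 0.0052) and the GIA libraries spread to both sides of them (SD 0.231), and the difference of 0.10 did not pass (exact permutation p = 0.7, two-sided). It was -0.02 without GIA library 2.

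Heavy-strand tRNAs had lower fitted values with GIA, and 0 of 14 passed the test. The 14 fold changes were negative in 14 of 14, with a median log2 fold change of -0.22, where 49.9% of all tested genes were negative. With 1 library left out, 12 to 14 of the 14 were negative. These genes share precursors and libraries and are not independent of each other. MT-TH had 93.5, 99.5 and 96.9 FPKM with DMSO and 93.4, 69.7 and 63.5 with GIA. The groups did not overlap, as for 5.60% of tested genes in this direction, but GIA library 1 lay just under DMSO library 1. Its log2 fold change was -0.36 (SE 0.16, adjusted p = 0.874 by edgeR). MT-TS2 had 91.8, 92.9 and 94.2 FPKM with DMSO and 91.6, 68.3 and 63.3 with GIA. Here too GIA library 1 stood beside the DMSO libraries and the other 2 stood apart, and the log2 fold change was -0.32 (SE 0.16). MT-TL2 had 73.5, 65.6 and 70.6 FPKM with DMSO and 70.3, 58.1 and 51.5 with GIA, with -0.22 (SE 0.15). Leaving out GIA library 1 gave -0.54 for MT-TH, -0.50 for MT-TS2 and -0.35 for MT-TL2, and leaving out GIA library 3 gave -0.25, -0.22 and -0.13. MT-TR had 109, 111 and 116 FPKM with DMSO and 104, 95.1 and 89.1 with GIA, without overlap, and a log2 fold change of -0.22 (SE 0.11).

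MT-TK had the widest spread of the members. It had 54.2, 60.3 and 31.2 FPKM in DMSO libraries 1 to 3 and 54.6, 19.3 and 16.8 in GIA libraries 1 to 3. GIA library 1 stood with DMSO libraries 1 and 2, and DMSO library 3 lay between the high and the low libraries. The log2 fold change was -0.68 (SE 0.44, interval -1.68 to 0.32), and leaving out GIA library 1, 2 or 3 gave -1.42, -0.44 and -0.39. MT-TI had 23.6, 24.98 and 23.2 FPKM with DMSO and 25.3, 17.4 and 19.0 with GIA, with -0.22 (SE 0.22). MT-TQ, which overlaps it on the light strand, had 15.9, 16.85 and 15.8 FPKM with DMSO and 16.6, 12.001 and 12.6 with GIA. Both had their lowest values in GIA libraries 2 and 3 and moved nearly together between libraries. Whether counting used the strand is not given, so MT-TQ may not be a result separate from MT-TI. MT-TF, MT-TV, MT-TM, MT-TW, MT-TD and MT-TT had log2 fold changes of -0.24, -0.27, -0.17, -0.16, -0.16 and -0.14, with SEs from 0.20 to 0.38. MT-TL1 and MT-TG were near 0, at -0.0070 (SE 0.09) and -0.04 (SE 0.09).

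GIA library 1 differed from GIA libraries 2 and 3 over this class. Of the 14 heavy-strand tRNAs, 13 were below every DMSO library in GIA library 2 and 9 in GIA library 3, against 5 in GIA library 1, where 2 were above every DMSO library. Each DMSO library was itself the lowest of the 3 DMSO libraries for 4 or 5 of the 14. Leaving out GIA library 1 gave a median log2 fold change of -0.30, and leaving out GIA library 2 gave -0.18. The summed counts of the 14, as a log2 ratio to the mRNAs, were -9.26, -9.20 and -9.17 with DMSO and -9.26, -9.48 and -9.54 with GIA. The groups did not overlap, but GIA library 1 and DMSO library 1 had nearly the same ratio. The difference of -0.21 had p = 0.1 by exact permutation (two-sided), the smallest the design allows. Splitting the tRNAs by strand was decided after their values were seen.

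**Figure D3:**
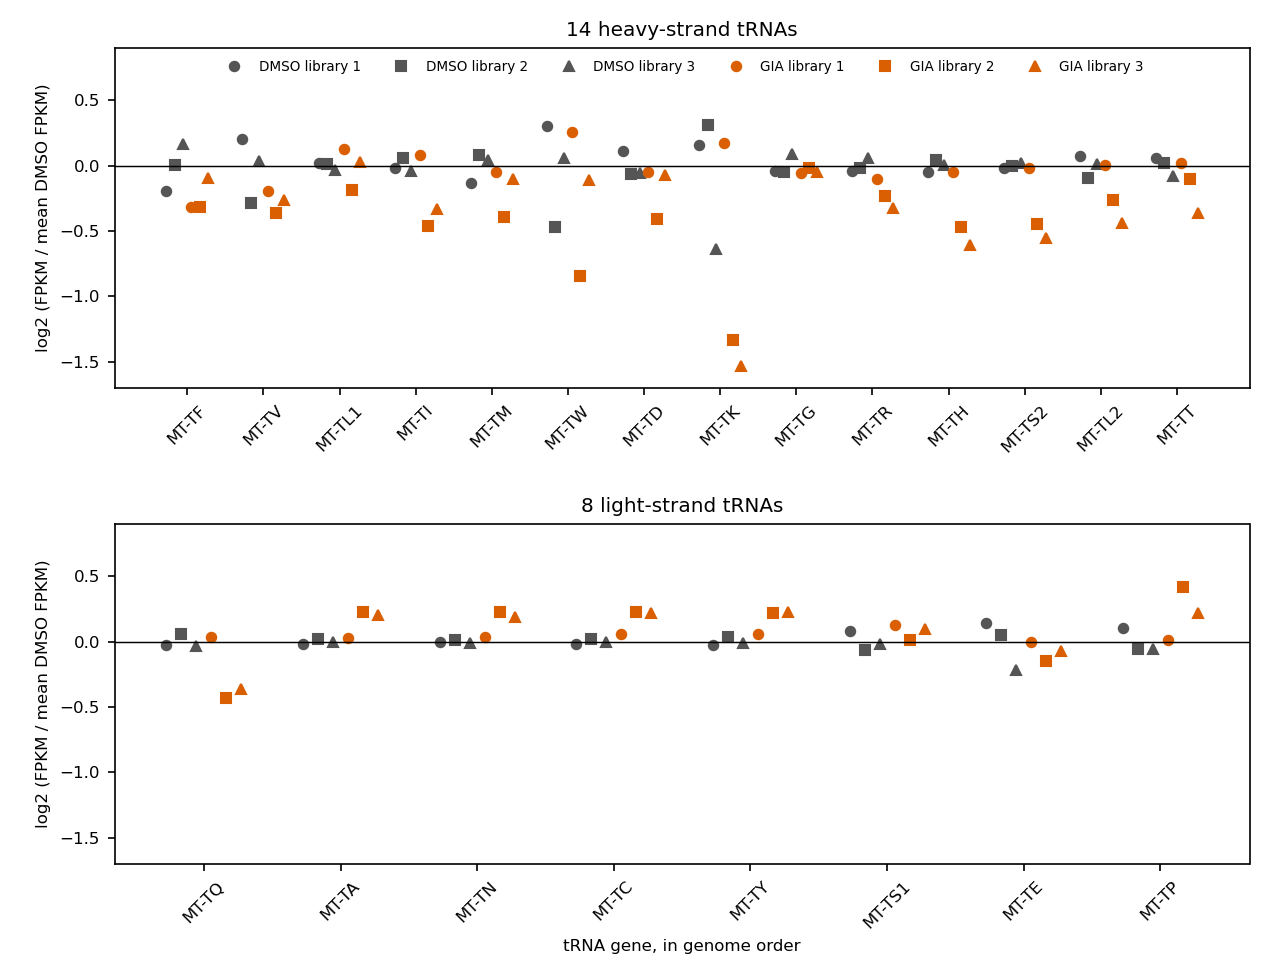
Log2 ratio of each library's FPKM to the mean of the 3 DMSO libraries for the 14 heavy-strand tRNAs (top) and the 8 light-strand tRNAs (bottom), with symbols as circles, squares and triangles for libraries 1, 2 and 3 of DMSO (grey) and GIA (orange). GIA libraries 2 and 3 lie below the DMSO libraries for MT-TI, MT-TQ, MT-TH, MT-TS2, MT-TL2 and MT-TK and above them for MT-TA, MT-TN, MT-TC and MT-TY, and GIA library 1 lies nearer to the DMSO libraries for these genes.

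In the light-strand cluster MT-TA, MT-TN, MT-TC and MT-TY beside MT-CO1, 0 of 4 passed the test, and the fitted values were positive in 4 of 4. MT-TY had 1205, 1258 and 1218 FPKM with DMSO and 1279, 1432 and 1440 with GIA. The groups did not overlap, with GIA library 1 nearest to the DMSO libraries. The fitted log2 value was 0.17 (SE 0.05, 95% interval 0.06 to 0.28, adjusted p = 0.874 by edgeR). MT-TC had 1066, 1095 and 1077 FPKM with DMSO and 1122, 1264 and 1253 with GIA, with 0.17 (SE 0.05). MT-TN had 1186, 1203 and 1183 with DMSO and 1223, 1392 and 1358 with GIA, with 0.15 (SE 0.05). MT-TA had 723, 739 and 728 with DMSO and 743, 854 and 839 with GIA, with 0.15 (SE 0.05). These 4 genes are adjacent and their values moved together between libraries, so they are not 4 separate results. Without any 1 library their log2 fold changes stayed between 0.12 and 0.22.

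The other light-strand tRNAs did not share 1 pattern. MT-TP had 88.2, 78.8 and 78.9 FPKM with DMSO and 82.6, 110 and 95.2 with GIA, a log2 fold change of 0.22 (SE 0.14), and 0.12 without GIA library 2. MT-TS1 had 0.08 (SE 0.06) and MT-TE -0.07 (SE 0.11), the latter 0.0019 without DMSO library 1. MT-TQ had -0.24 (SE 0.23). Over the 8 light-strand tRNAs the median was 0.15, with 6 positive and 2 negative, where 50.1% of all tested genes were positive. The tRNAs of both strands together, which are mostly light-strand counts, had a log2 ratio to the mRNAs of -6.59 ± 0.0448 with DMSO and -6.55 ± 0.0779 with GIA (SD, n = 3; exact permutation p = 0.5, two-sided).

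The balance of distal and proximal heavy-strand mRNAs was compared between GIA and DMSO, which does not test whether level depends on position. The 4 promoter-distal mRNAs MT-ND4L, MT-ND4, MT-ND5 and MT-CYB were compared with the 3 promoter-proximal mRNAs MT-ND1, MT-ND2 and MT-CO1. The log2 ratio of their mean FPKM was -0.0067, -0.02 and -0.03 with DMSO and -0.04, 0.03 and 0.02 with GIA. Distal and proximal mRNAs thus had nearly equal means in each library. The proximal mean combines unlike levels, 7718 FPKM for MT-CO1 against 1218 for MT-ND1 and 1689 for MT-ND2. The difference of 0.02 between GIA and DMSO had p = 0.4 by exact permutation (two-sided), which cannot go below 0.1 in this design. Adjusted by Benjamini-Hochberg over the family of 5 library summaries, the permutation p-values were 0.625 for the share, the tRNA ratio, the strand ratio and the position ratio and 0.7 for the rRNA ratio.

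**Figure D4:**
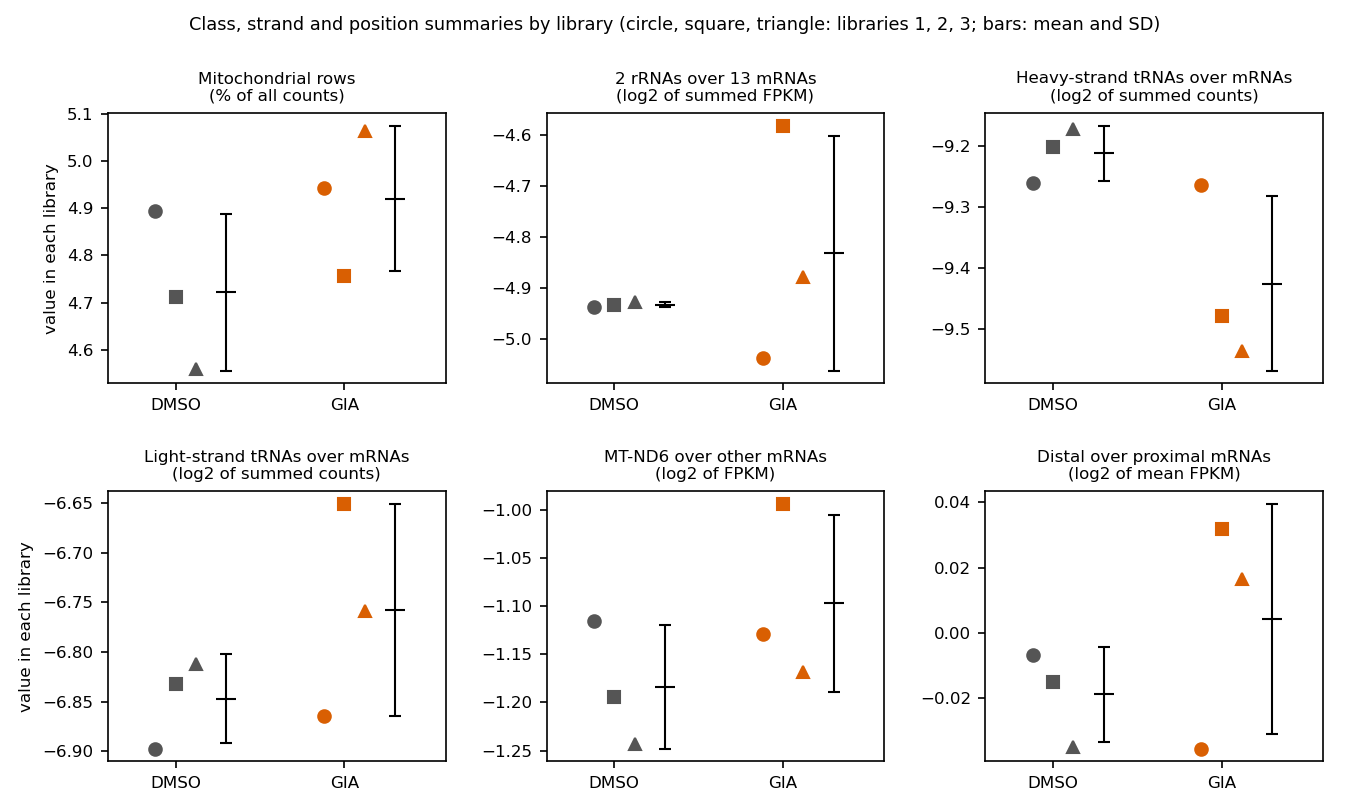
Library summaries with 1 point per library (circle, square, triangle for libraries 1, 2, 3; DMSO grey, GIA orange) and the mean with SD beside them; the axes do not start at 0. The 3 DMSO values of the rRNA to mRNA ratio lie between -4.94 and -4.93 while the GIA values run from -5.04 to -4.58, and the heavy-strand tRNA ratio is the panel in which the groups do not overlap.

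Nuclear copies of mitochondrial genes took reads too. The table holds 55 rows named as copies, of which 9 passed the filter, and 3 on chromosome 1 held 99.05% of their counts. MTATP6P1 (1:633696-634376) is 98.5% identical to MT-ATP6 over 681 bases and had 29399 to 39685 counts, 19.1% of the count of MT-ATP6. MTCO1P12 (1:631074-632616), 98.6% identical to MT-CO1, had 2.45% of its count, and MTND2P28 (1:629640-630683), 98.4% identical to MT-ND2, had 10.6%. How reads that fit both were assigned is not given, so the levels of these members and copies are uncertain by an amount not measured here. With all 6 libraries, each copy had a log2 fold change of the same sign as the gene it copies. The values were -0.06 (SE 0.10) for MTATP6P1 and -0.04 for MT-ATP6, and 0.08 (SE 0.04) for MTCO1P12 and 0.08 for MT-CO1. MTND2P28 had -0.10 (SE 0.07) and MT-ND2 -0.04. Without GIA library 2, MTND2P28 had -0.02 and MT-ND2 0.06. Without DMSO library 1, MTATP6P1 had -0.02 and MT-ATP6 0.0033.

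The nuclear genes that run the mitochondrial genome also had no member past the test. Of 47 genes of mitochondrial transcription and RNA handling, 0 were higher and 0 lower, with a median log2 fold change of -0.02 and 33 negative. The polymerase POLRMT averaged 23.5 FPKM (SD 1.30, n = 3) under DMSO and 22.9 (SD 0.0508, n = 3) under GIA, a log2 fold change of -0.04 (SE 0.04). TFAM, which packages and activates mitochondrial DNA, had -0.02 (SE 0.05), without DMSO library 1 0.01, and TFB2M, the initiation factor, -0.08 (SE 0.07). The elongation factor TEFM had 0.0045 (SE 0.08) and the stabilising pair LRPPRC and SLIRP -0.04 (SE 0.03) and -0.0035 (SE 0.06). The smallest unadjusted p-values of the list belonged to RCC1L, a mitochondrial ribosome assembly factor (-0.14, SE 0.04), and the poly(A) polymerase MTPAP (-0.12, SE 0.05), both with an adjusted p of 0.874 by edgeR.

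Among 20 genes of mitochondrial DNA replication and maintenance, 0 passed in either direction and the median was 0.0032. The helicase TWNK averaged 11.2 FPKM (SD 0.344, n = 3) under DMSO and 10.4 (SD 0.316, n = 3) under GIA (log2 fold change -0.12, SE 0.05), the exonuclease MGME1 -0.08 (SE 0.04) and the polymerase POLG 0.0062 (SE 0.04). Of 9 regulators of mitochondrial biogenesis 0 passed, with GABPB1 at -0.13 (SE 0.06) and ESRRA at -0.06 (SE 0.04). The 24 nuclear subunits that partner the mitochondrial ones in complexes I, III, IV and V had a median of -0.04, with 21 negative and 0 past the test. ATP5MC1 had -0.10 (SE 0.04) and ATP5F1B -0.05 (SE 0.03), both ATP synthase subunits. In level, the median mitochondrial mRNA stood 86.9 to 114 times above the median of these nuclear partners in each library, on the FPKM scale.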

How the data were processed

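RNA was measured in 6 libraries, 3 with DMSO and 3 with GIA. Per the submitters' processing notes, the tools were HISAT2 2.2.1, StringTie 2.1.6, cutadapt, FastQC 0.10.1 and DESeq2 1.22.2, and the genome builds named are hg38 and GRCh38; the annotation release and the handling of reads with several matches are not given in the sources used here. In total, the authors deposited 1 table with an estimated count and an FPKM per gene and library, per the file headers. Within a library the count is a fixed multiple of FPKM times gene length for every member. Low counts pile up at 4 (6798 values, against 4183 at 3 and 2499 at 5). The estimated counts were therefore taken as coverage-derived, with about 4 counts per fragment. Only the Wilson intervals divided them by 4, whereas the edgeR and DESeq2 fits used them undivided. The estimated counts were whole numbers already.

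Genes averaging 0.5 FPKM or more were fitted with edgeR 4.0.16 (quasi-likelihood, TMM, two-sided) in R 4.3.3, with adjustment over all 13721 genes and a threshold of 0.05. Each standard error is the fold change divided by the root of F. Alternatives were DESeq2 1.42.0, limma 3.58.1 on log2(FPKM + 0.5) or log2(FPKM + 1), other scalings and filters, a replicate block and leaving out each library. Library summaries were compared by exact permutation. The fit was tested on simulated counts. Sequences are GENCODE release 29 transcripts (GRCh38). Genes were named by a rule: all mRNAs and rRNAs, the tRNAs past the filter, 8 fixed nuclear genes, the 2 of smallest p in each nuclear list and the 3 copies of highest count. Members and lists were chosen with earlier results of these data known.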

Additional observations from a re-analysis of the deposited data

How the results depend on the processing

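No mitochondrial transcript passed the threshold (edgeR, adjusted p under 0.05) in any of the alternative fits, which changed the tool, the scaling, the filter or the pseudocount, added a replicate block or left out a library. MT-TW was not tested at a mean FPKM of at least 5, where 36 members were. Over all genes the count of 0 became 3 with the replicate block and ranged from 0 to 3 when 1 library was left out (2 without DMSO 2, 2 without DMSO 3, 1 without GIA 1 and 3 without GIA 3). Correlations of same-numbered deviations were 0.052, 0.033 and 0.097. Those of different numbers were 0.035 for DMSO 2 with GIA 1 and otherwise negative, from -0.086 to -0.012. All were small, and they do not settle whether the replicate numbers pair the samples. The filter of 5 FPKM gave MT-TL1 0.0016 and SLIRP 0.0061, of opposite sign. The tRNA to mRNA difference was -0.21 for heavy-strand tRNAs alone and -0.29 without MT-TL1. For light-strand tRNAs alone it was 0.089 (exact permutation p = 0.3, two-sided). These splits were chosen after seeing the data. The rRNA to mRNA difference ran from -0.024 (without GIA 2) to 0.20 (without GIA 1) over the left-out libraries.

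Leaving out 1 library moved the log2 fold change of 30 of 37 members by over 1.5 times or changed its sign, the exceptions being MT-TA, MT-TN, MT-TC, MT-TY, MT-CO1, MT-TR and MT-ND5. The sign changed for 11 members, whose log2 fold changes ran from -0.079 to 0.080 (MT-TL1), -0.025 to 0.10 (MT-ND1), -0.14 to 0.059 (MT-ND2), -0.43 to 0.091 (MT-TW), -0.017 to 0.054 (MT-CO2), -0.12 to 0.047 (MT-ATP8), -0.099 to 0.053 (MT-ATP6), -0.052 to 0.053 (MT-CO3), -0.066 to 0.00066 (MT-TG), -0.17 to 0.0019 (MT-TE) and -0.0038 to 0.12 (MT-CYB). The same held for TFAM (-0.067 to 0.014), TEFM (-0.028 to 0.042), SLIRP (-0.033 to 0.011), POLG (-0.026 to 0.032) and MTATP6P1 (-0.15 to 0.060). The cause was not tested. The member of lowest depth was MT-TW, with 13 to 28 counts per library and an SE of 0.38, and the largest SE was that of MT-TK (0.44), with a mean count of 186.0.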
